A study of Danio rerio with 45 samples.

Results

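Section D, the slice next to the vegetal tip of the zebrafish (Danio rerio) embryo, was compared with section C, the middle slice, at 3 hours post fertilisation (hpf), a stage of about 1000 cells. Embryos had been cut along the animal-vegetal axis into 5 sections, from A at the animal end to E at the vegetal end, and the RNA of every section was sequenced (TOMO-seq). The comparison rests on 6 of the 40 libraries in the count table, 3 of section D and 3 of section C, and the same 2 sections at 1 hpf (about 4 cells, also 3 libraries each) are used beside it. The labels name no treatment, and strain, genotype and the number of embryos behind a sample are not given in the sources used here. Sections carry a biological replicate number in the labels, and that number was a block in the test, so replicate 1 of D is set against replicate 1 of C. Levels are given as CPM, a gene's count scaled to its library's total with a TMM factor, which is a share of the RNA in a section. More of an RNA in D and less of all other RNA in D therefore cannot be told apart, nor can fewer cells and less RNA per cell.

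In the zebrafish egg the cytoplasm gathers at the animal pole, and the cells of the embryo sit there on top of a large yolk cell. During oogenesis a set of maternal RNAs is carried to the vegetal pole, many of them with the Balbiani body, an assembly of mitochondria and RNA that the protein Buc organises. Among these RNAs are those for the dorsal determinant Huluwa and for the machinery that moves dorsal determinants along vegetal microtubules, and some components of germ plasm, the cytoplasm that specifies germ cells. Other germ plasm collects at the cleavage furrows of the animal cap, and other maternal RNAs are held at the animal pole. Around 3 hpf the zygotic genome begins to be transcribed in the cells, while the yolk below still holds maternal RNA.

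Section D held 2070602, 2354726 and 4116912 counts in replicates 1, 2 and 3, and section C 3015842, 4893086 and 5224399. The libraries of a number deviated together: the correlation of C with D over genes, of deviations from the section means, was 0.437, 0.502 and 0.796 within replicates 1, 2 and 3. Across replicates 1 and 2 the correlations were 0.282 and 0.32, not far below the values within them. Replicate 3 stood apart from the others, with correlations from -0.507 to -0.631 across to replicates 1 and 2. Deviations from a mean of 3 sum to 0 for each gene, which by itself draws correlations across numbers downward. Section D of replicate 1 differed most from its own section C, both in the vegetal and in the animal RNAs described here. Counts of calls are therefore given with and without each replicate.

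Among 12625 genes tested, 226 were higher in D (1.79%) and 87 were lower in D (0.689%) by the quasi-likelihood test of edgeR at an adjusted p of 0.05, 313 in all (2.48%). Counts of called list members below are to be read beside these shares, at which a short list holds few calls. An unadjusted p under 0.05 was reached by 1336 genes, 688 of them higher in D and 648 lower. The median log2 fold change of all genes tested was -0.0134. A change of at least 2-fold was found for 105 of the higher genes (0.832% of all genes tested) and for 23 of the lower ones (0.182%). The 3 values of D lay above the 3 of C for 192 of the 226 genes, against 682 of all genes tested (5.4%), and below them for 58 of the 87, against 575 (4.55%). The calls were made on these same libraries, so a lack of overlap in a called gene describes its values and is no further support. DESeq2 gave 271 higher and 108 lower. Without replicate 1 the counts were 117 and 25, without replicate 2 they were 123 and 5, and without replicate 3 they were 251 and 134. Without the replicate block 82 and 6 genes passed, all 88 of them among the 313 called with it. The sign of all 313 was kept in every alternative fit. These fits reuse the same libraries, and a sign could hardly turn. In all 3 replicates D lay above C for 225 of the 226 higher genes and below C for all 87 lower ones. A call in every one of 10 alternative fits was reached by 72 higher genes and by 2 lower ones, abca3b and ppdpfb.

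The steps between neighbouring sections differed in their number of calls. Section B against A gave 0 calls by edgeR, with 150 genes at an unadjusted p under 0.05. Section C against B gave 19 calls (0.15%), and section E against D gave 719 (5.7%). These steps share libraries with the step from C to D. Leaving out 1 replicate at a time gave 0 to 5, 0 to 54 and 269 to 653 calls in these 3 steps: the step from B to C had 0 calls without replicate 1 or 2 and 54 without replicate 3. Without replicate 3 the step from D to E had 269 calls, fewer than the 251 higher and 134 lower from C to D, so the order of these 2 steps turned.

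**Figure D1:**
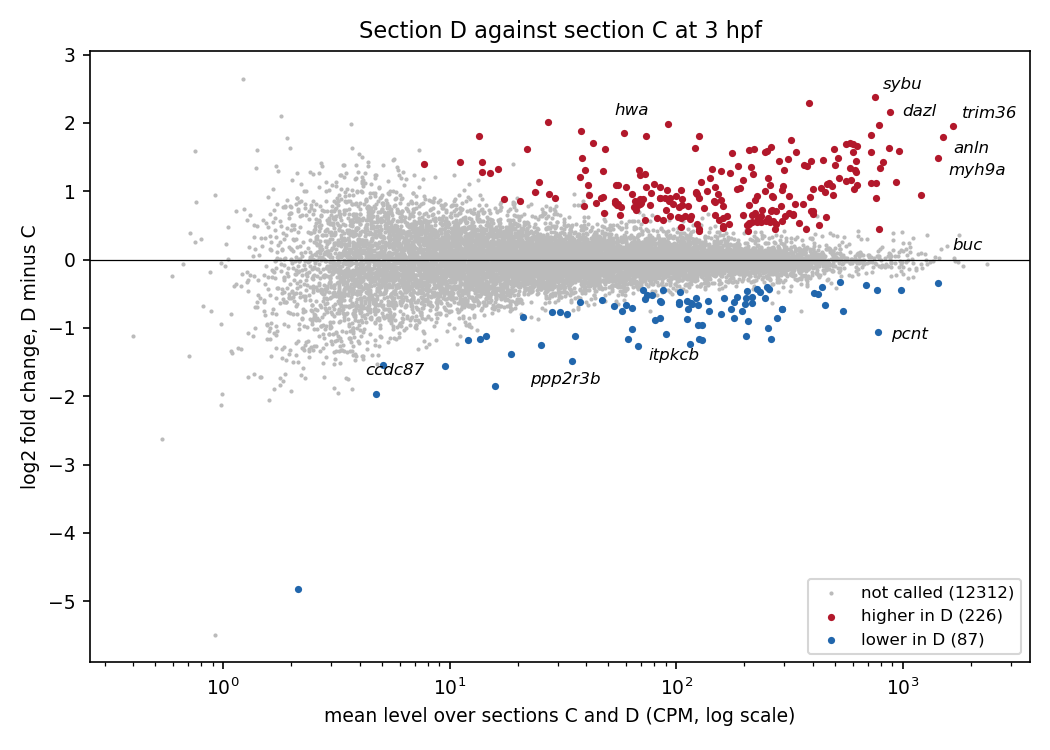
Each point is 1 of 12625 genes, with the mean level over sections C and D on the horizontal axis (CPM, log scale) and the log2 fold change of D against C at 3 hpf on the vertical axis. The 226 genes higher in D reach up to abundant RNAs such as trim36 and anln, while most of the 87 lower genes lie within 2-fold of C.

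The RNAs of sybu, grip2a, hwa and trim36, which are tied to dorsal determination and were picked by name, were each higher in D. The gene sybu, which encodes syntabulin, the linker between kinesin and the cargo of the dorsal determinants, had 295, 229 and 188 CPM in C and 2039, 1041 and 724 CPM in D, in replicates 1, 2 and 3. Every D value was above every C value, and the mean in D was 5.34 times that in C (2.37 ± 0.22 SE on the log2 scale, as for every difference in brackets from here on; edgeR adjusted p = 1.35e-06). The scaffold gene grip2a, needed for dorsal specification, stood at 193, 115 and 71.0 CPM in C and at 1167, 483 and 295 CPM in D (2.29 ± 0.24). The determinant hwa itself was less abundant, with 53.6, 29.5 and 25.6 CPM in C and 246, 120.3 and 77.7 CPM in D (1.99 ± 0.24, edgeR adjusted p = 1.69e-05). For trim36, a ubiquitin ligase gene needed in Xenopus for vegetal microtubules and the dorsal axis, C held 902, 667 and 399 CPM and D held 4623, 2221 and 1210.0 CPM (1.96 ± 0.20). In all of these genes replicate 1 had the highest value of both sections and replicate 3 the lowest, and the D-to-C difference kept its call without each replicate in turn. The same levels continued to climb beyond D, to means of 4385 CPM for sybu and 8079 CPM for trim36 in E.

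Of 14 germ plasm RNAs tested, 4 were higher in D and 0 lower, against 1.79% and 0.689% of all genes tested. The list median was 0.16 (log2), against -0.0134 over all genes. The germ cell translation factor gene dazl stood at 447, 358 and 141 CPM in C and at 2213, 1545 and 545 CPM in D. The 2 sections did not overlap (2.16 ± 0.29, edgeR adjusted p = 6.06e-05). The RNA-binding protein gene celf1 reached 403, 309.5 and 222 CPM in C and 1937, 1069 and 758 CPM in D (1.98 ± 0.19). Smaller differences were those of hook2, which encodes a microtubule adaptor, at 455 ± 141 CPM in C and 991 ± 277 CPM in D (SD, n = 3; 1.12 ± 0.21), and of dnd1, which encodes a protector of germ cell RNAs from microRNAs, at 119 ± 35.2 and 202 ± 32.5 CPM (0.79 ± 0.20). Of the 226 higher genes hook2 alone had its highest mean in D, and E held 932 CPM. Its call was lost without replicate 2 (edgeR adjusted p = 0.149), and that of dnd1 without replicate 1 (0.151) or 2 (0.221) and by DESeq2 (adjusted p = 0.116), so that 2 of the 14 were called without replicate 2.

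The other 10 germ plasm RNAs did not pass. The organiser gene buc was abundant and level, with 1427, 1517 and 1376 CPM in C and 1359, 1557 and 1472 CPM in D, and the C and D values overlapped (0.019 ± 0.088, edgeR adjusted p = 0.971). The helicase gene ddx4 stood at 456 ± 76.1 CPM in C and 503 ± 97.5 CPM in D (0.13 ± 0.22), nanos3, which encodes a translational repressor of germ cells, at 81.6 ± 8.75 and 93.4 ± 40.1 CPM (0.20 ± 0.20), and tdrd7a, a germ granule gene, at 289 ± 47.8 and 304 ± 71.3 CPM (0.059 ± 0.22). Of 12 piRNA pathway genes, which silence transposons in germ cells, 0 were higher and 1 was lower, against 1.79% and 0.689% of all genes tested. The lower gene was tdrd1, a Tudor domain gene with several rows whose reads can be split among copies. It had 70.6, 74.7 and 77.1 CPM in C and 36.4, 46.1 and 56.4 CPM in D (-0.67 ± 0.15). Its adjusted p by edgeR was 0.0155, with 0.186 without replicate 1 and 0.234 without replicate 2.

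Of 12 RNAs listed as vegetal in the oocyte, 9 were higher in D, against 1.79% of all genes tested, and 0 lower. The median log2 fold change of the 12 was 1.84. The list was chosen with earlier results of these data known. The 9 higher genes were sybu, grip2a, hwa, trim36, dazl, ctdsplb, vrtn, slbp2 and fer. The phosphatase gene ctdsplb stood at 442, 299 and 213 CPM in C and at 1682, 1035 and 689 CPM in D (1.82 ± 0.18, edgeR adjusted p = 3.45e-06). The gene vrtn, which encodes vertnin, had 206, 145 and 84.7 CPM in C and 715, 478 and 288 CPM in D (1.76 ± 0.18). Oocyte histone mRNA binding protein is encoded by slbp2, at 346, 331 and 212 CPM in C and 1319.6, 1007 and 535 CPM in D (1.67 ± 0.21). All values of D exceeded all of C in these 3 genes. The tyrosine kinase gene fer (1.86 ± 0.22) has several rows, and its value is uncertain for that reason. Not called were magoh_1, a row of an exon junction gene with copies (-0.32 ± 0.23), the cytoskeletal linker gene macf1a (-0.066 ± 0.15) and birc2, an inhibitor of cell death (0.86 ± 0.66), which had means of 2.35 and 4.07 CPM. The median difference of the 12 RNAs was 2.06, 1.80 and 1.59 in replicates 1, 2 and 3 from C to D, and 0.91, 0.87 and 2.51 from D to E, so replicate 3 had the smallest of these steps before D and the largest after it.

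**Figure D2:**
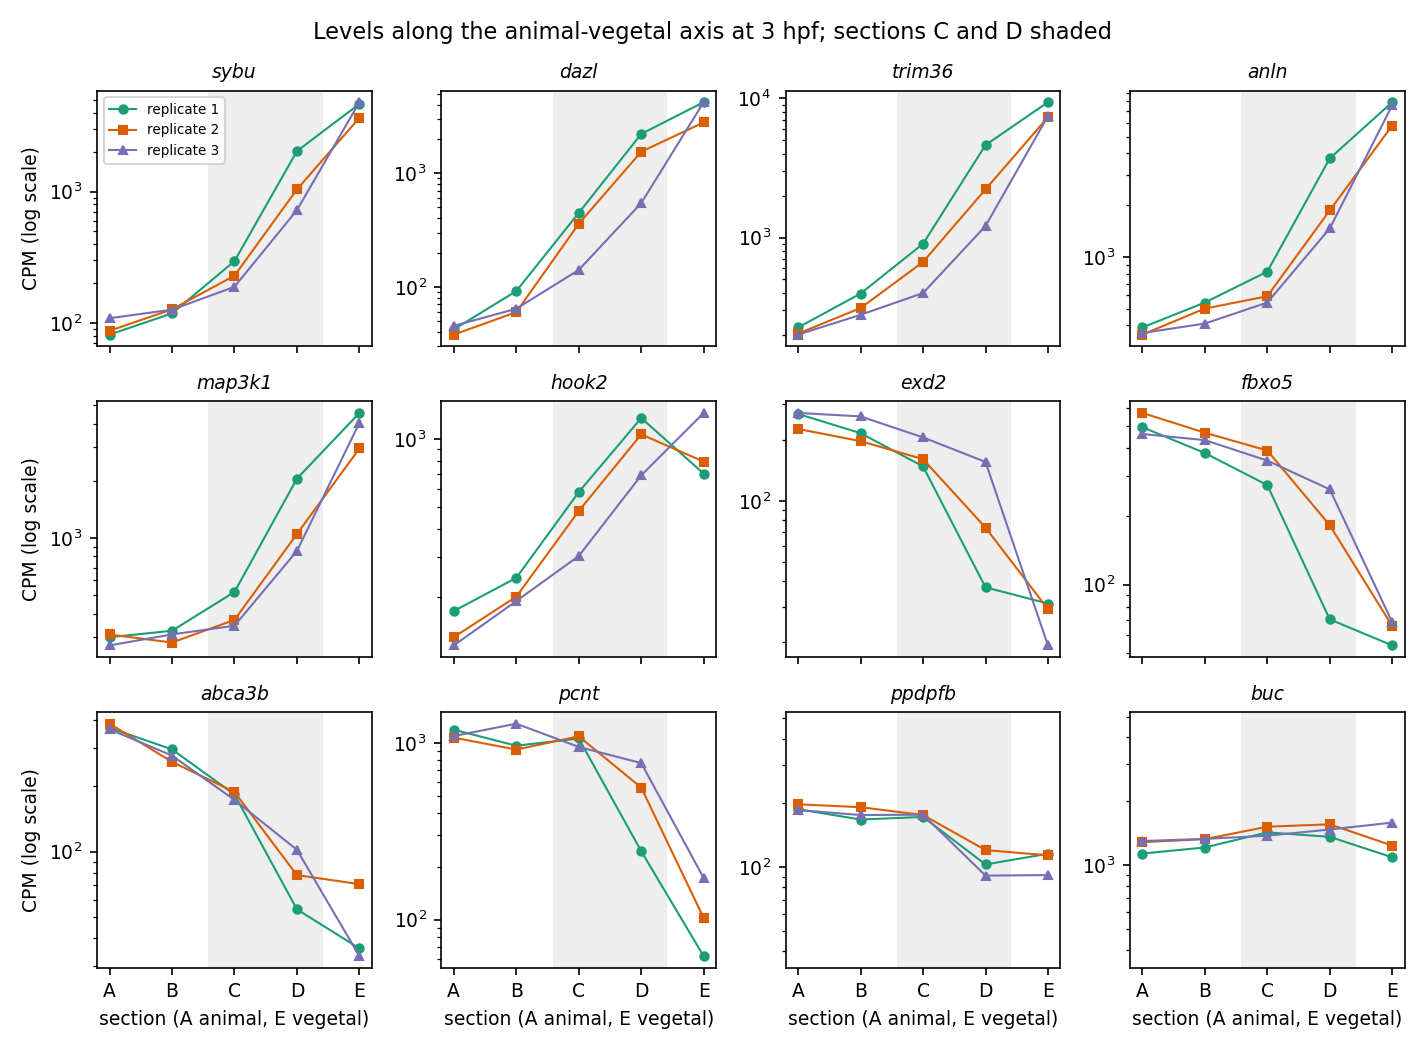
Levels of 12 genes in the 5 sections at 3 hpf (CPM, log scale), 1 line per replicate, with sections C and D shaded. The RNAs sybu, dazl, trim36, anln and map3k1 climb through D to E in every replicate, hook2 is highest in D in replicates 1 and 2, exd2, fbxo5, abca3b and pcnt are lower in D than in C in every replicate, ppdpfb drops between C and D and is level elsewhere, and buc is level.

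Genes of the contractile cortex came next. Of 29 genes of cytokinesis and the actin cortex, 4 were higher and 0 lower, against 1.79% and 0.689% of all genes tested. The list median was -0.028. At an unadjusted p under 0.05 by edgeR 6 were higher and 4 lower, against 688 and 648 of all 12625 genes tested. Anillin, which links actin, myosin and the membrane at the cleavage furrow, is encoded by anln, at 822, 592 and 544 CPM in C and 3738, 1865 and 1465 CPM in D. Every D value lay above every C value (1.80 ± 0.16, edgeR adjusted p = 1.35e-06). The myosin regulatory light chain gene myl12.1 reached 309, 233 and 175 CPM in C and 1164, 620.2 and 486 CPM in D (1.62 ± 0.18). Of the 2 heavy chain genes of non-muscle myosin IIA, myh9a stood at 871, 753 and 609.9 CPM in C and at 3027, 1595 and 1708 CPM in D (1.48 ± 0.17), and myh9b at 212 ± 44.7 and 309 ± 20.5 CPM (0.56 ± 0.13, edgeR adjusted p = 0.0158). The call of myh9b was lost without replicate 2 (0.416) or 3 (0.0924). Most members of the list did not pass. The non-muscle myosin gene myh10 had 296 ± 13.8 CPM in C and 259 ± 41.3 CPM in D (-0.19 ± 0.10). The actin genes actb1 (0.16 ± 0.083) and actb2 (0.19 ± 0.071) did not pass.

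Among 30 microtubule motor genes 1 was higher and 1 lower, against 1.79% and 0.689% of all genes tested. At an unadjusted p under 0.05 by edgeR 1 was higher and 6 were lower, against 688 and 648 of all 12625 genes tested. The kinesin gene kif2a, whose product takes microtubules apart, had 227, 148 and 129.7 CPM in C and 771, 425 and 330.4 CPM in D (1.57 ± 0.18, edgeR adjusted p = 8.99e-06). The chromokinesin gene kif4 was lower, at 465, 516 and 502 CPM in C and 291, 311 and 450.1 CPM in D (-0.50 ± 0.11). Both genes had no overlap between sections, but kif4 lost its call without replicate 1 (edgeR adjusted p = 0.236) or 2 (0.463). The vinculin gene vcla, for a linker of junctions to actin, was the only 1 of 25 adhesion and junction genes that passed. With 1.79% of all genes tested higher, a list of this size holds few calls. The gene vcla stood at 46.1 ± 9.11 CPM in C and 85.5 ± 37.2 CPM in D (0.85 ± 0.18). It was not called without replicate 1 (0.0542) or 2 (0.15), where 0 of the 25 were called.

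Several of the largest differences toward D belonged to none of these lists. The splicing regulator gene hnrnph1 was scarce, with 16.7, 8.30 and 6.30 CPM in C and 71.7, 43.6 and 16.4 CPM in D (2.02 ± 0.32). Its sections overlapped, since D of replicate 3 lay below C of replicate 1, and the call was lost without replicate 2 (edgeR adjusted p = 0.105). Tsukushi, a secreted proteoglycan, is encoded by tsku, at 8.50, 7.12 and 33.2 CPM in C and 54.3, 20.5 and 104 CPM in D (1.88 ± 0.23). Here replicate 3 was highest in both sections, and without the replicate block the adjusted p was 0.776. The Hippo pathway effector gene yap1, a row with copies and therefore uncertain, had 3.60, 5.34 and 8.52 CPM in C and 23.4, 10.5 and 29.3 CPM in D (1.82 ± 0.31), and its call was lost without replicate 3 (0.0501). The phosphoinositide kinase gene pip4k2aa stood at 74.6, 53.6 and 37.1 CPM in C and at 291, 184 and 116 CPM in D (1.81 ± 0.20, edgeR adjusted p = 5.15e-06). The kinase gene map3k1, the first tier of a MAP kinase cascade, was far more abundant, at 520.4, 371 and 346 CPM in C and 2054, 1051 and 856 CPM in D (1.63 ± 0.16). In pip4k2aa and map3k1 every D value lay above every C value, and both calls held without each replicate.

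At the other end, most RNAs listed for the animal pole of the oocyte were lower in D. The list was chosen with earlier results of these data known. Of 10 tested, 7 were lower, against 0.689% of all genes tested, and 0 higher. The median log2 fold change of the 10 was -0.85. The phosphatase subunit gene ppp2r3b had 44.8, 60.7 and 48.2 CPM in C and 13.4, 21.8 and 18.8 CPM in D (-1.48 ± 0.22, edgeR adjusted p = 0.000256). The mitotic inhibitor gene fbxo5 stood at 274, 389 and 351 CPM in C and at 70.2, 182 and 262 CPM in D (-1.002 ± 0.20). For exd2, an exonuclease gene, the values were 148, 161 and 206 CPM in C and 37.4, 73.8 and 156 CPM in D (-0.95 ± 0.23, edgeR adjusted p = 0.022). The first 2 genes had no overlap between sections, while D of replicate 3 for exd2 lay within the range of C. The coiled-coil gene ccdc102a (-1.23 ± 0.25), foxh1, a transcription factor gene of Nodal signalling (123 ± 22.8 CPM in C and 56.9 ± 33.5 CPM in D; -1.09 ± 0.23), pou5f3, a regulator of genome activation (680.3 ± 148 and 413 ± 178 CPM; -0.75 ± 0.13), and the cyclin B gene ccnb1 (1597 ± 192 and 1268 ± 245 CPM; -0.34 ± 0.085) made up the rest. The ligand gene gdf3 (0.087 ± 0.092), notch1a, which encodes a receptor (-0.22 ± 0.095), and zar1l_1 (-0.42 ± 0.19) did not pass.

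These differences were uneven between replicates. The median over the 10 animal pole RNAs was -1.48, -0.86 and -0.46 in replicates 1, 2 and 3 from C to D, and -0.29, -0.59 and -1.16 from D to E. Section D of replicate 1 was thus nearly at the level of E, while D of replicate 3 stayed closer to C. Without replicate 2 0 of the 10 were called, with an edgeR adjusted p of 0.0583 for ppp2r3b, 0.313 for fbxo5, 0.487 for exd2, 0.368 for ccdc102a, 0.169 for foxh1, 0.0693 for pou5f3 and 0.44 for ccnb1. Without replicate 1, exd2 (0.144) and ccnb1 (0.245) were not called, exd2 was not called by DESeq2 (0.129), and without the replicate block 0 were called.

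The centrosome and spindle list had 0 of 32 members higher and 4 lower, against 1.79% and 0.689% of all genes tested, with a median of -0.13. Pericentrin, the scaffold of the material around the centriole, is encoded by pcnt, at 1061, 1091 and 950.3 CPM in C and 244, 559 and 770.2 CPM in D (-1.07 ± 0.23, edgeR adjusted p = 0.00872). The 2 sections did not overlap, and pcnt was flat from A (1119.6 CPM) to C (1034 CPM) before it reached 525 CPM in D and 112 CPM in E. Smaller differences were those of genes for partners in spindle assembly: tacc3 (471 ± 45.3 CPM in C and 338 ± 75.1 CPM in D; -0.49 ± 0.11), its microtubule polymerase partner ckap5 (880.5 ± 60.2 and 656 ± 195 CPM; -0.44 ± 0.12) and tpx2, which encodes the activator of Aurora A (1125 ± 74.0 and 832 ± 168 CPM; -0.44 ± 0.099). The kinase gene aurka itself had 333, 402 and 351 CPM in C and 165, 267 and 232 CPM in D (-0.72 ± 0.097, edgeR adjusted p = 6.03e-05). Of these 5 genes aurka alone kept its call without each replicate, and all 4 of the list were lost without replicate 1 (0.0738 to 0.415) or 2 (0.11 to 0.36). The gene lrmp, needed to attach nuclei to centrosomes, had 429, 477 and 409.6 CPM in C and 114, 284 and 408 CPM in D (-0.75 ± 0.23, edgeR adjusted p = 0.108), with D of replicate 3 beside the values of C. Without replicate 3 lrmp was called (0.00646).

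With aurka, fbxo5 and ccnb1, 3 of 23 cell cycle genes were lower and 0 higher, against 0.689% and 1.79% of all genes tested. The cyclin genes ccna1 (-0.012, C 1274 CPM), ccna2 (0.099, C 1162 CPM) and ccnb2 (0.14, C 938 CPM) did not pass. Without replicate 2 the 3 became 1, aurka.

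The remaining large differences toward C came from genes of many kinds. The ATP-binding cassette transporter gene abca3b had 183, 188 and 173 CPM in C and 54.3, 78.0 and 102 CPM in D (-1.18 ± 0.18, edgeR adjusted p = 0.000238), and its call held in all 10 alternative fits. The gene micall2b, for an actin-associated protein, stood at 308, 359 and 409.8 CPM in C and at 69.2, 169 and 257 CPM in D (-1.16 ± 0.20). The inositol phosphate kinase gene itpkcb had 95.4 ± 19.0 CPM in C and 39.5 ± 26.4 CPM in D (-1.26 ± 0.20), and clstn1, which encodes the kinesin cargo protein calsyntenin, 85.2 ± 28.8 and 37.2 ± 25.4 CPM (-1.16 ± 0.21). These 3 genes were not called without replicate 2 (edgeR adjusted p = 0.11, 0.0889 and 0.234). Lower levels were those of the ubiquitin ligase gene traip (49.3 ± 15.4 and 22.1 ± 9.44 CPM; -1.12 ± 0.24), fbxl18 (27.2 ± 13.9 and 9.86 ± 4.21 CPM; -1.39 ± 0.26, with several rows), the metalloprotease gene adam8a (18.7 ± 4.99 and 8.39 ± 3.43 CPM; -1.17 ± 0.28), gbp3 (-1.12 ± 0.27), sumo2a, a SUMO gene (-1.18 ± 0.28), and ccdc87 (-1.56 ± 0.38). Each of these 6 lost its call without replicate 1 and without replicate 2, with edgeR adjusted p values from 0.0672 to 0.416, and adam8a (0.154), gbp3 (0.206) and sumo2a (0.137) also without replicate 3.

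Called signalling genes lay in both directions. Of 21 Wnt genes 2 were higher and 2 lower, against 1.79% and 0.689% of all genes tested, with a median of 0.042. Beside hwa, which stabilises beta-catenin, the transcription factor gene lef1 was higher, at 151, 67.2 and 54.6 CPM in C and 380.1, 259 and 149 CPM in D (1.56 ± 0.19, edgeR adjusted p = 2.24e-05). Sections overlapped for lef1, as C of replicate 1 lay above D of replicate 3, and D exceeded C within each replicate. Lower in D were axin1, the scaffold of the complex that destroys beta-catenin, at 347, 358 and 380.0 CPM in C and 143, 194 and 335 CPM in D (-0.72 ± 0.15), and the co-receptor gene lrp5, at 87.6 ± 13.9 and 58.1 ± 3.87 CPM (-0.58 ± 0.12). The beta-catenin genes did not pass, with ctnnb1 at 551 ± 20.3 and 563 ± 57.3 CPM (0.030 ± 0.083) and ctnnb2 at 976 ± 86.0 and 1151 ± 81.0 CPM (0.24 ± 0.10). Without replicate 1, axin1 (edgeR adjusted p = 0.166) and lrp5 (0.21) were not called, without replicate 2 axin1 was not (0.339), and without replicate 3 lrp5 was not (0.0702). In the Nodal and BMP list foxh1 was lower, against 0.689% of all genes tested, and the other 19 of 20 genes did not pass. Of 10 maternal regulators of genome activation, set against the same share, foxh1 and pou5f3 were lower. Without replicate 2 neither foxh1 nor pou5f3 was called. The regulators nanog (1219 ± 72.0 CPM in C and 1285 ± 48.3 CPM in D; 0.078 ± 0.069) and sox19b (737 ± 75.6 and 645 ± 113 CPM; -0.20 ± 0.084) were not called.

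Of 23 genes of the lysosome and yolk proteolysis, 2 were higher and 0 lower, against 1.79% and 0.689% of all genes tested, with a median of 0.16. The carboxypeptidase gene ctsa had 345, 288 and 274 CPM in C and 679, 428 and 401 CPM in D (0.71 ± 0.11, edgeR adjusted p = 0.000317), without overlap and with its call kept without each replicate. The membrane protein gene lamp1b stood at 169 ± 18.6 CPM in C and 240.3 ± 37.4 CPM in D (0.51 ± 0.13), and was not called without replicate 1 (0.491) or 2 (0.277). The cathepsin genes ctsla (0.11 ± 0.094), ctsba (0.019 ± 0.084) and ctsd (-0.086 ± 0.21) did not pass. The 21 histone supply genes are set against the same shares of all genes tested. Among them slbp2 and the somatic form slbp (236 ± 44.0 and 351 ± 82.9 CPM; 0.56 ± 0.12) were higher, and the histone chaperone row nasp_1, with copies, was lower (589 ± 199 and 468 ± 159.7 CPM; -0.32 ± 0.085). Of these 3 called genes, slbp2 alone was called without replicate 2 or without replicate 1.

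The lists of common housekeeping machinery held 0 or 1 call each, against 2.48% of all genes tested, a share at which lists of this size hold few calls. Ribosomal proteins had 0 of 78 called by edgeR, with 2 at an unadjusted p under 0.05 and 0 by DESeq2, and a median of -0.022. Their median D-to-C difference was 0.15, -0.020 and -0.20 in replicates 1, 2 and 3. In these replicates 47, 36 and 12 of the 78 were higher in D, against 6008, 6021 and 6258 of all 12625 genes tested. In replicate 3 66 of the 78 were thus lower in D. Proteasome subunits had 0 of 38 (0 unadjusted, 0 by DESeq2), and DNA replication genes 0 of 40 (3 unadjusted, all lower, 0 by DESeq2). Genes of the respiratory chain coded in the nucleus had 0 of 87 called by edgeR, 7 lower at an unadjusted p under 0.05 and 1 lower by DESeq2. Of all 12625 genes tested 648 were lower at an unadjusted p under 0.05. Of 60 mitochondrial ribosomal protein genes mrps34 was lower (101 ± 10.8 and 73.4 ± 11.5 CPM; -0.45 ± 0.12), and of 34 genes of mRNA decay and translational control pabpc1a, which encodes a poly(A) binding protein, was lower (499 ± 34.3 and 377 ± 83.7 CPM; -0.41 ± 0.11). Both were lost without replicate 1 or 2 (edgeR adjusted p from 0.42 to 0.589). The oocyte and egg coat list had 0 of 14 called by edgeR or DESeq2 (1 at an unadjusted p under 0.05), and stress response genes 0 of 3 (1 unadjusted, 0 by DESeq2). Genes of the mitochondrial genome were not analysed here.

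**Figure D3:**
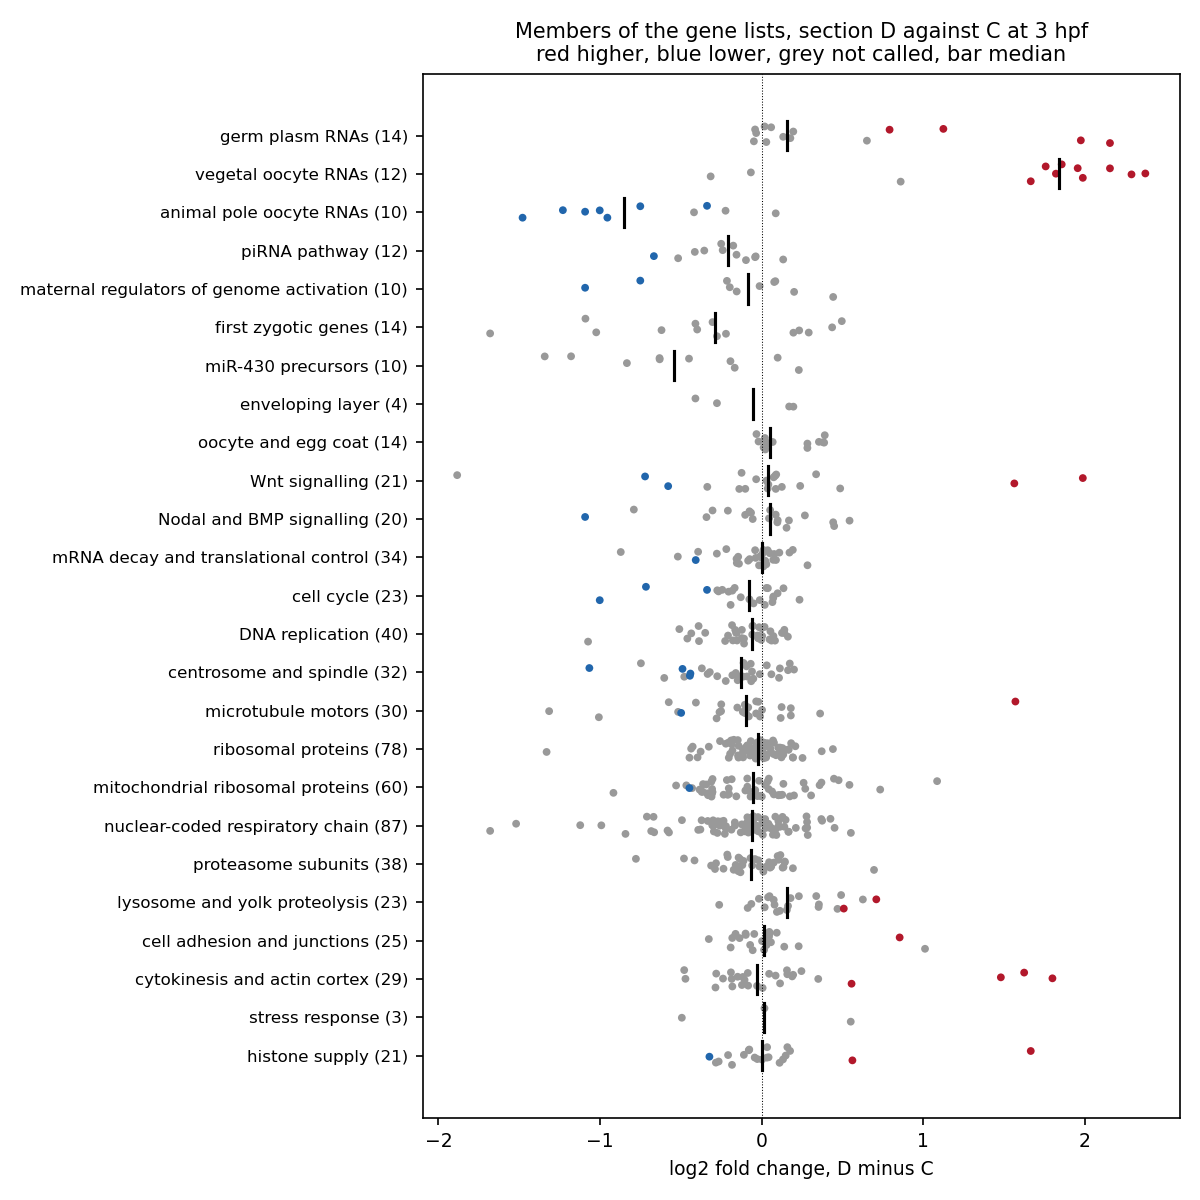
Log2 fold change of D against C at 3 hpf for every tested member of 25 gene lists, 1 point per gene, red where called higher, blue where called lower and grey where not called, with a bar at the list median and the number of members in brackets. The vegetal oocyte list lies to the right with a median of 1.84 and the animal pole list to the left with a median of -0.85, while ribosomal, proteasome and respiratory chain genes gather around 0.

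The sums of the first zygotic and miR-430 lists did not differ between D and C in the same direction in all 3 replicates. Of 14 first zygotic genes 0 were called by edgeR or DESeq2 and 0 reached an unadjusted p under 0.05, and the same held for 10 precursor rows of miR-430a and miR-430b, of the microRNA family that clears maternal RNA. The summed level of the 14 genes was 150.5, 144 and 266 CPM in C and 36.9, 136 and 316 CPM in D of replicates 1, 2 and 3, against 16.3, 33.3 and 41.02 CPM in E. Section D of replicate 1 was thus low and D of replicates 2 and 3 lay near their sections C. The sum in E came mostly from bambia (0, 10.6 and 23.2 CPM), hspb1 (10.6, 11.6 and 16.3 CPM) and ndr1_1 (5.72, 8.47 and 0 CPM). These genes were also tested at 1 hpf, before genome activation. At 3 hpf they held 5.98, 6.97 and 4.98 CPM in D of replicate 1, where the sum was 36.9 CPM. The genes bambia, hspb1 and ndr1_1 were thus a large part of the low sum in D of replicate 1 as well. In D of replicates 2 and 3, klf17 held 33.5 and 80.6 CPM and vox 26.8 and 46.4 CPM. The highest value of either gene in E was 2.12 CPM. The 10 miR-430 rows summed to 92.2, 99.2 and 130.2 CPM in C, 14.9, 115 and 100.9 CPM in D and 0, 2.12 and 0 CPM in E. With the miR-430c rows, which are outside that list, the 13 rows summed to 101, 112 and 161 CPM in C and 15.9, 135 and 127 CPM in D. Of the 10 rows 0, 6 and 1 were higher in D and 10, 4 and 9 lower, in replicates 1, 2 and 3. As the precursors are near-identical copies and how their reads were assigned is not given in the sources used here, only sums and counts of rows are printed. The transcription factor gene vox had 48, 126 and 196 counts in C, 0, 64 and 190 counts in D and 0 counts in each library of E. For klf17, an enveloping layer regulator, the counts were 140, 175 and 335 in C, 22, 80 and 330 in D and 0, 4 and 1 in E (D against C -0.28 ± 0.34, edgeR adjusted p = 0.863). The median D-to-C difference of the 14 genes was -1.98, -0.18 and 0.24 in replicates 1, 2 and 3. The vegetal and animal RNAs above also differed most between C and D in replicate 1, and the part of these zygotic levels in those results was not tested.

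Markers of other cell types gave little to compare. Of 17 enveloping layer markers 4 were tested, gata3, klf17, grhl3 and ppl, with 0 called by edgeR or DESeq2 and 0 at an unadjusted p under 0.05. Their sum was 165 to 209 CPM in C, 158 to 254 CPM in D and 78.6 to 132 CPM in E. Most of it was ppl, with 131, 111 and 118 CPM in C and 132, 114 and 77.1 CPM in E at 3 hpf. The gene ppl was also among those tested at 1 hpf. In E, gata3 had 0, 0 and 2 counts, grhl3 0 in each library and klf17 0, 4 and 1. Of 16 yolk syncytial layer markers 1 was tested, fn1a_1 (18.4 to 28.0 CPM in C and 17.8 to 25.9 CPM in D), and the 17 maternal liver and blood markers were not analysed here. Of 12 follicle cell markers gsdf and lhcgr were tested, at a sum of 0.327 to 11.7 CPM in C and 0 to 7.82 CPM in D, with the highest value of each section in replicate 3. The part of these cells in the results was not tested.

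**Figure D4:**
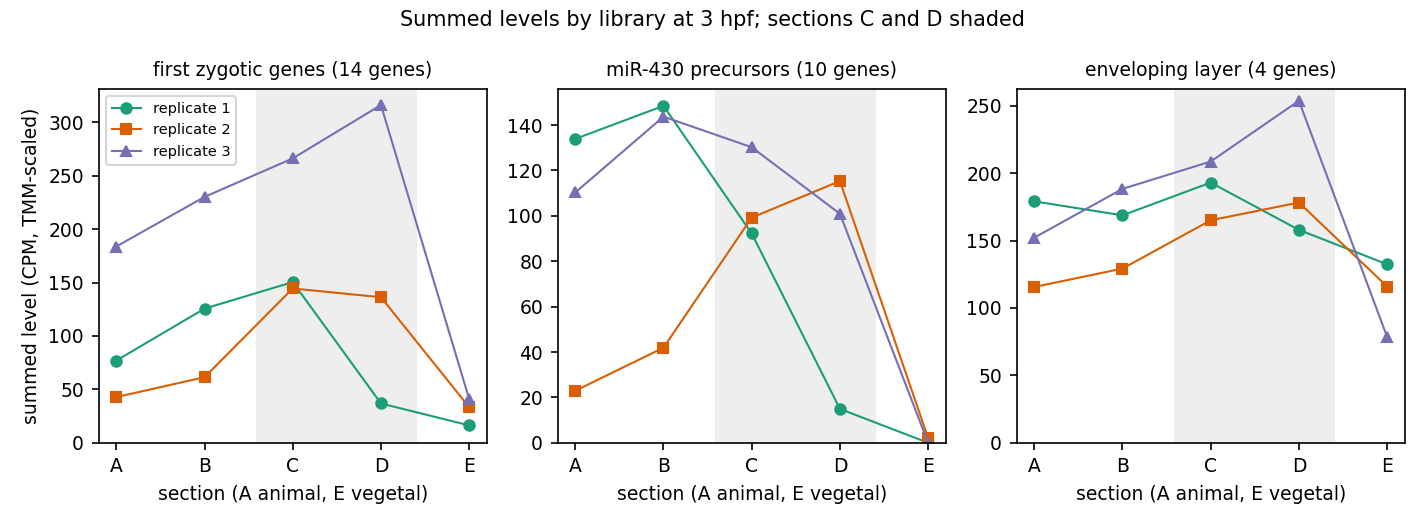
Summed level (CPM with TMM scaling, linear scale from 0) of 14 first zygotic genes, 10 miR-430 precursors and 4 enveloping layer genes in the 5 sections at 3 hpf, 1 line per replicate, with sections C and D shaded. Section D lies at 36.9, 136 and 316 CPM for the zygotic genes in replicates 1, 2 and 3. Section E lies at 16.3 to 41.02 CPM, mostly from bambia, hspb1 and ndr1_1, which were also tested at 1 hpf. The enveloping layer sum in C, D and E is mostly ppl.

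The shape of the profile along the axis was described for the called genes, whose D-to-C step chose them. Of the 226 higher genes 225 had their highest mean in E and 196 their lowest in A. Their median log2 step was 0.48 from A to C, 0.96 from C to D and 0.98 from D to E. A group of 76 differed by less than 1.25-fold between A and C, and 43 were at least 2-fold higher in C than in A, among them dazl (41.8 CPM in A and 315 CPM in C). The filamin gene flnbl (238 CPM in A, 235 CPM in C, 369 CPM in D) and mosmoa, a Hedgehog pathway gene (57.1 CPM in A, 67.8 CPM in C, 131 CPM in D), lay within the flat group. So did si:rp71-46j2.7, a gene with no given function (168 CPM in A, 183 CPM in C, 271 CPM in D), which lost its call without replicate 1 (edgeR adjusted p = 0.194) or 2 (0.298), and flnbl lost it without replicate 2 (0.0838). The means of map3k1 were 295, 306 and 412 CPM in A, B and C before 1320.3 CPM in D and 3850.2 CPM in E. Of the 87 lower genes 72 had their highest mean in A and 70 their lowest in E, with median steps of -0.35, -0.72 and -0.44.

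The same contrast at 1 hpf, in other embryos, asks whether the difference was already there before genome activation. At 1 hpf 167 of 12597 genes were higher in D (1.33%) and 146 lower (1.16%), 313 in all (2.48%), with 1100 at an unadjusted p under 0.05. Of the 226 genes higher at 3 hpf 130 were also higher at 1 hpf, which is 57.5% of the former and 77.8% of the latter. Of the 87 lower genes 54 were shared, 62.1% of those at 3 hpf and 37.0% of those at 1 hpf, and 0 genes were called in opposite directions. The 167 genes called higher at 1 hpf had a median log2 fold change of 0.73 there, and of 1.01 in the libraries of 3 hpf, where 164 of them had the same sign. The 146 called lower had medians of -0.63 and -0.48, with the same sign for 142. For dazl the log2 fold change was 2.098 ± 0.21 at 1 hpf and 2.16 at 3 hpf, although its level in C was 75.3 ± 11.99 CPM at 1 hpf and 315 ± 158 CPM at 3 hpf. The centrosome gene pcnt had -1.12 ± 0.28 at 1 hpf and -1.07 at 3 hpf.

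At 1 hpf alone 37 higher and 92 lower genes were called, among the latter lrmp (-0.85 ± 0.15, edgeR adjusted p = 0.00124). Other RNAs were called at 3 hpf but not at 1 hpf, which is not by itself a change between stages. The lysosomal gene ctsa had 0.19 ± 0.084 at 1 hpf, flnbl -0.037 ± 0.078 and mosmoa 0.11 ± 0.11, and among the lower genes tpx2 had 0.022 ± 0.055, ckap5 -0.0097 ± 0.058 and sumo2a -0.021 ± 0.13. A test of the change itself, as the D-to-C difference at 3 hpf minus that at 1 hpf, gave 2 calls among 12667 genes (0.0158%), ppdpfb and zdhhc24_1, both toward C, with 690 at an unadjusted p under 0.05. For ppdpfb, a gene for a factor of pancreatic progenitors, C held 172, 175 and 176 CPM and D 103, 119.9 and 90.9 CPM at 3 hpf, while at 1 hpf the means were 203 ± 23.4 CPM in C and 208 ± 9.98 CPM in D. Its difference of -0.75 ± 0.10 at 3 hpf and 0.037 ± 0.096 at 1 hpf changed by -0.80 ± 0.14 (SE, edgeR adjusted p = 0.0327), and E (107 CPM) lay near D while A (189.6 CPM) and B (178 CPM) lay near C. The palmitoyltransferase row zdhhc24_1 had 56 counts over C and 1 over D at 3 hpf, a ratio per count of 0.0275 (95% exact interval of counting error 0.000683 to 0.159), and 126 and 113 counts at 1 hpf. At 3 hpf the row's means were 5.10, 3.49, 4.19, 0.0814 and 5.45 CPM in A, B, C, D and E, so it was low in D alone. The other rows of the gene, zdhhc24 and zdhhc24_2, had ratios of 1.13 and 1.16. The sum of all 3 was 193 counts in C and 104 in D at 3 hpf (ratio 0.828, interval 0.646 to 1.06), so the value of the single row is uncertain. For flnbl (change 0.68 ± 0.14, edgeR adjusted p = 0.175) and mosmoa (0.81 ± 0.18, 0.2) the change did not pass. Nor did it for ctsa (0.43), tpx2 (0.241), ckap5 (0.586) and sumo2a (0.215). The count of 2 was 0 without replicate 1 or 2 and 8 without replicate 3, and 12 with DESeq2.

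**Figure D5:**
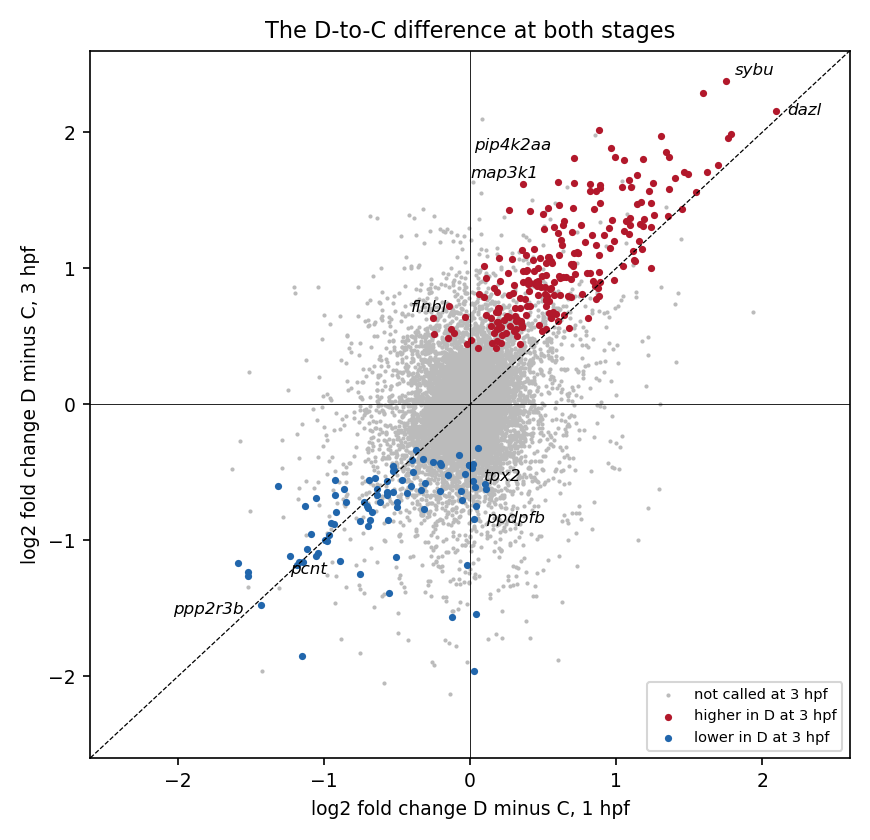
Log2 fold change of D against C at 1 hpf (horizontal axis) and at 3 hpf (vertical axis) for each gene tested at both stages, coloured by the call at 3 hpf, with a dashed line of equal values. 3 genes lie beyond the axes at 2.6, 1 of them called; sybu and dazl lie far to the upper right, and ppdpfb, tpx2 and flnbl near 0 on the horizontal axis.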

How the data were processed

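The deposited table holds raw read counts per gene (12670 rows) in 40 libraries; the build was GRCz11 and the tools were HTSeq 2.0.4, STAR 2.7.11, fastp 0.23.4 and DESeq2, per the submitters' processing notes. Per the labels' protocols, LiCl precipitation, depletion of ribosomal RNA and a strand-specific kit preceded sequencing. How reads from gene copies were counted is not given in the sources used here. 1082 rows carry a copy number, and 764 symbols have several rows. The 5 sections of replicate 3 at 2 hpf were not analysed here.

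Counts were tested with edgeR 4.0.16 (TMM, filterByExpr, glmQLFit and glmQLFTest; R 4.3.3) on the 15 libraries of 3 hpf, with replicate as a block (8 residual degrees of freedom) and Benjamini-Hochberg adjustment over 12625 genes. 45 genes were removed by the filter. A standard error is the log2 fold change divided by the square root of F, and a positive value means higher in D. The 15 libraries hold 1355607 to 5398317 counts. Exact intervals of count ratios cover counting error only. The pairing by number comes from the labels' biological replicate. Correlations of same-numbered libraries were 0.437 to 0.796, against 0.282 and 0.32 across replicates 1 and 2, so they bear weakly on the pairing of these 2. As nothing in the labels says how the embryos of a replicate were raised or pooled, the p-values cover no more than the variation among these libraries. The code was tested on simulated counts. The members, 29 gene lists and named genes were chosen with earlier results of these data known. Named genes were the 12 called genes with the largest difference in each direction (same sign in all 3 replicates, a mean of at least 10 CPM in the higher section, a descriptive symbol), up to 4 called members per list and 4 genes in each direction of the change between stages, both by the smallest adjusted p, and genes set by name. Uncalled list members were named for their role. Alternatives were library totals, RLE factors, no filter, DESeq2 1.42.0, no replicate block, other sets of libraries and leaving out each replicate.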

Additional observations from a re-analysis of the deposited data

Results flagged for a closer look

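The D-to-C difference of 2 genes differed between 1 hpf and 3 hpf by a test of the difference itself. The change was -0.80 ± 0.14 (log2, SE) for ppdpfb and -4.92 ± 0.86 for zdhhc24_1, both with an edgeR adjusted p of 0.0327, and D was below C in 3 of 3 replicates at 3 hpf for both genes. Neither was called without replicate 1 or 2. The fitted change of zdhhc24_1 rests on 1 count in D and on a row with copies.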

How the results depend on the processing

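All 313 genes kept their sign in every alternative, which is little support, as the alternatives reuse the same libraries. Without the replicate block 82 higher and 6 lower passed. That fit gave 0 calls for C against B, 237 for E against D, 54 higher and 53 lower for D against C at 1 hpf, and 1 for the change between stages. Library totals gave 1131 calls for E against D, and moved the share of higher calls for D against C at 3 hpf from 72.2% to 65.3%. Fitting only sections C and D gave 336 higher and 281 lower at 1 hpf and 8 changes, fitting all 40 libraries gave 105, 97 and 0, and DESeq2 gave 12 changes. Leaving out 1 replicate at a time gave 117 to 251 higher and 5 to 134 lower at 3 hpf, 109 to 133 and 64 to 130 at 1 hpf, 0 to 5 for B against A, 0 to 54 for C against B, 269 to 653 for E against D and 0 to 8 changes. The cause of these differences was not tested. Each fit without a replicate also had fewer libraries. Of 61 named genes called, 24, 36 and 6 lost the call without replicate 1, 2 and 3, 40 without the block, 5 with only sections C and D, 3 with all 40 libraries and 2 with DESeq2, which gave no adjusted p for 5 more, and 0 reversed. Rare RNAs rest on few counts, and D had fewer counts in total than C in every replicate. The part of depth in the calls was not tested.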

Other observations

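Several RNAs outside the gene lists also differed between D and C, and were chosen here after their values were seen. The formin gene fhod1, for a protein that assembles actin filaments, had 341, 301 and 199.7 CPM in C and 1361, 777 and 632 CPM in D (log2 fold change 1.69 ± 0.18 SE, edgeR adjusted p = 3.69e-06). The calcium-binding actin regulator gene efhd2 stood at 357, 299 and 217 CPM in C and at 1512, 720.0 and 514 CPM in D (1.57 ± 0.16). The gelsolin family gene flii (1.11 ± 0.14) and mob1bb, a Hippo kinase partner (1.44 ± 0.16), were higher too. In all of these genes D was above C in each replicate.

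Some paralogues, also chosen after their values were seen, differed in opposite directions. Others, such as myh9a and myh9b or slbp2 and slbp, were both higher, and pairs of either kind were not counted. The gene micall2a had 635, 564 and 507 CPM in C and 2044, 1094 and 765 CPM in D (1.14 ± 0.18, edgeR adjusted p = 0.000388), while micall2b was lower in D (-1.16 ± 0.20). The kinase genes itpkca (0.68 ± 0.10) and itpkcb (-1.26 ± 0.20) also differed in sign. The calls of micall2b and itpkcb were lost without replicate 2 (edgeR adjusted p = 0.11 and 0.0889) and without the replicate block (0.185 and 0.162). Of the tropomyosin genes tpm3 was higher, at 545, 446 and 430.0 CPM in C and 1534, 758 and 858 CPM in D (1.12 ± 0.15), and tpm1 lower, at 142, 147 and 142 CPM in C and 70.2, 101 and 103 CPM in D (-0.64 ± 0.11).

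By RefSeq biotype (GRCz12tu, matched by symbol) 0 of 67 long non-coding RNA rows and 0 of 13 microRNA rows were called by edgeR. Over all genes tested 2.48% were called, a share at which groups of this size hold few calls. A ribosomal RNA row, LOC137496280, had 121, 38.9 and 25.2 CPM in C and 278, 189.5 and 75.01 CPM in D (1.63, edgeR adjusted p = 0.0152), and the small nuclear RNA row LOC137496264 had 221, 64.0 and 43.2 CPM in C and 471, 332 and 128 CPM in D. In both rows C of replicate 1 lay above D of replicate 3, so the sections overlapped. The small nucleolar RNA row LOC137488422 was lower, at 18.3, 34.4 and 22.6 CPM in C and 3.99, 9.22 and 6.84 CPM in D (-1.85). Of ribosomal, small nuclear and small nucleolar RNA rows, 1 of each kind was called and 2 of each were not. Ribosomal RNA had been depleted from the libraries, and the part of that step in these values was not tested.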
